A study of Mus musculus with 67 samples.

Results

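Interferon-stimulated genes, the genes that cells switch on after interferon binds its receptors, were followed across mouse intestinal organoids and mouse crypts. The set was a list of 41 genes chosen by name, with earlier results of these data known. Its choice may therefore not be independent of the values. The members described here are the 40 listed genes that have a row among the study's 29579 genes. The gene without a row is Mx2. By role the list holds 10 antiviral effectors, 5 guanylate binding proteins, 4 GTPases of the IRG family, 4 transcription factors, 4 nucleic acid sensors, 2 feedback inhibitors, 2 GTPases of the Mx family, 3 secreted proteins or enzymes and 7 other interferon-induced genes.

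The study grew small-intestinal organoids in media that differ in a few components and sequenced their RNA in bulk, giving 49 libraries in 10 media, and it sequenced crypts taken from irradiated mice, giving 18 libraries in 9 groups. ENR, the standard medium, holds R-Spondin 1 at 500 ng/mL, noggin at 100 ng/mL and EGF at 50 ng/mL, and had 7 libraries. The 8C condition, with 7 libraries, joins R-Spondin 1 conditioned medium (10%) and the growth factors bFGF (20 ng/mL) and EGF (50 ng/mL) with 5 small molecules, which are Pexmetinib (1 µM), GSK3iXV (0.1 µM), LDN193189 (0.2 µM), EPZ6438 (2 µM), which blocks EZH2 and thereby histone methylation, and VPA (500 µM), valproic acid, which inhibits histone deacetylases. The other media were 8C-V without VPA (6 libraries), 8C-E without EPZ6438 (7), 8C-VE without both drugs (7), 8C-GSK3i, 8C-Pex, 8C-bFGF and 8C-EGF without the component named (3 each), and ENR+VE, which is ENR with both drugs at doses that the sources used here do not state (3). Organoids came from mice of 6 to 12 weeks. Crypts came from 8-week-old female C57BL/6 mice and were unirradiated (Normal) or were taken 1, 2, 3 or 5 days after a single dose of 12 Gy (dpi), either without drugs (IR) or with VPA at 40 mg/kg and EPZ6438 at 0.6 mg/kg by daily gavage (IR+VE), with 2 libraries a group. The study's legends count mice as replicates of its bulk RNA plots, with fewer mice than the larger organoid groups have libraries. The labels do not tie libraries to mice or cultures, so organoid libraries of a group may share a mouse, and the p-values measure only the spread between these libraries.

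The organoid libraries carried the epithelial markers that the labels imply, with Epcam, Cdh1, Vil1, Krt8, Krt18 and Cdx2 summing to between 6138 and 11620 TPM, a unit of transcript abundance corrected for transcript length and library total. Their 12 immune markers summed to between 1.85 and 17.9 TPM, and to between 3.37 and 17.9 TPM in the 8C condition. There Cd8a, Cd52, Itgax and Gzma were listed at 0 in each of the 7 libraries, and Ptprc, the pan-leukocyte gene, reached at most 0.0825 TPM. Other markers of the 12 made up most of the sum. Crypt libraries held more immune transcripts, between 16.4 and 713 TPM over the same 12 markers, so members there were read in a mixed tissue in which fewer cells of a type and less RNA per cell cannot be told apart. TPM values carry no record of sequencing depth, so the depth is unknown and no counting interval is given.

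Interferons signal through cell surface receptors and JAK kinases to STAT proteins. Type I and type III interferons, of which type III acts mainly on epithelia such as that of the intestine, assemble a complex with STAT2 and IRF9 that binds the interferon-stimulated response element (ISRE), and interferon-gamma acts through the gamma-activated site (GAS). The induced proteins block virus replication, sense foreign nucleic acids, mark pathogen vacuoles and, in the case of SOCS1 and USP18, shut the pathway down again.

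Promoters of 8 members that passed a test are shown as examples. Bst2, Ifit2, Igtp and Socs1 passed it in organoids, and Ifit1, Ifit3, Isg15 and Gbp2 passed it in crypts. Socs1 entered its test only through libraries in which it was high, so its call is no separate finding. Each window holds 250 bases before and 50 bases after the annotated start, 5′ to 3′ on the gene's strand, from RefSeq on GRCm38.p6. They lie at chr8:71537423-71537722 (Bst2, minus strand), chr19:34550444-34550743 (Ifit2, plus), chr11:58199306-58199605 (Igtp, plus), chr16:10785487-10785786 (Socs1, minus), chr19:34640639-34640938 (Ifit1, plus), chr19:34583279-34583578 (Ifit3, plus), chr4:156200769-156201068 (Isg15, minus) and chr3:142620413-142620712 (Gbp2, plus). Capitals mark each match to GAAANNGAAA, the core of the ISRE, on either strand, or to TTCNNNGAA, the core of the GAS, which reads the same on both strands. Where matches overlap, as in Bst2, Socs1 and Isg15, they form 1 run of capitals.
Bst2: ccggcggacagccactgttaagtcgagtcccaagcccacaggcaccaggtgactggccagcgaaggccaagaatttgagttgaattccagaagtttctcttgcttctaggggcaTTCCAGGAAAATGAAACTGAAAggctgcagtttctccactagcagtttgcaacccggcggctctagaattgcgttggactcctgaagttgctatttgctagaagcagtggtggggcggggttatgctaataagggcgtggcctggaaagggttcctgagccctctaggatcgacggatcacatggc
Ifit2: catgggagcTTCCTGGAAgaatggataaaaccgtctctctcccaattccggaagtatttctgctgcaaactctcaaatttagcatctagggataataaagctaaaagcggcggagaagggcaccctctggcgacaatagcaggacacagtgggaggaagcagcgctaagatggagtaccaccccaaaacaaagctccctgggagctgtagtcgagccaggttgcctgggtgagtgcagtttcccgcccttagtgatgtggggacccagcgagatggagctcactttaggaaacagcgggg
Igtp: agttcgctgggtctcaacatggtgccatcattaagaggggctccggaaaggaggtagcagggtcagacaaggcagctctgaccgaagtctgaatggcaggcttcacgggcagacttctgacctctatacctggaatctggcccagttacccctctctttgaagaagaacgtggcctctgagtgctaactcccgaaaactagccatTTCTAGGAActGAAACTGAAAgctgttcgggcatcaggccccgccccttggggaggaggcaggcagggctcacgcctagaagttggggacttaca
Socs1: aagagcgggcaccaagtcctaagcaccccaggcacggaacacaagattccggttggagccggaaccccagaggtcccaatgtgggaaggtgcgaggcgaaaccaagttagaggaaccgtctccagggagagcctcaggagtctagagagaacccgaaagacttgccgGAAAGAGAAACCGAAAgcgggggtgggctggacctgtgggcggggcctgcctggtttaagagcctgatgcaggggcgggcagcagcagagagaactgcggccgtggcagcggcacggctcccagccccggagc
Ifit1: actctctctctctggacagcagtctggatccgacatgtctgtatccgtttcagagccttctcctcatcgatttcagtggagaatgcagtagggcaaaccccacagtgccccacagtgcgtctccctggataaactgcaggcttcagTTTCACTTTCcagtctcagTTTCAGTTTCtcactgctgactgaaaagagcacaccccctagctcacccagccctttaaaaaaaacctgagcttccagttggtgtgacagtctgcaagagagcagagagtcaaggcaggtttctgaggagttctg
Ifit3: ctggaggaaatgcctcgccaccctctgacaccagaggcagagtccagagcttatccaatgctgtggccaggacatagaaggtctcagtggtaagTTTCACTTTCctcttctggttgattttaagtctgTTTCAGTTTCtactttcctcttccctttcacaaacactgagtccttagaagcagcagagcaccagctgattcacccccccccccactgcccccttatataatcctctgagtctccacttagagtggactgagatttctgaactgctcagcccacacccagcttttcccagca
Isg15: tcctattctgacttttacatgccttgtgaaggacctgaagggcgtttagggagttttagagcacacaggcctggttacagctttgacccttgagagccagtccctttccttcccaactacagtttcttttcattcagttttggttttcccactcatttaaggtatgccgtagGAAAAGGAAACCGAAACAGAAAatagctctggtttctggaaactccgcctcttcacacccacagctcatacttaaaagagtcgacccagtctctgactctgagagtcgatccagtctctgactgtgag
Gbp2: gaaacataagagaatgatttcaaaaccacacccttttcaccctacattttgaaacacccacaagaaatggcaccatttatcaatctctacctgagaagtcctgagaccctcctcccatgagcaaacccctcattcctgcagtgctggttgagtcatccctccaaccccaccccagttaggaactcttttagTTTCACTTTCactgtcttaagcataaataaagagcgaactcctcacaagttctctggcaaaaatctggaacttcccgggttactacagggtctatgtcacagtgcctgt

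Of these windows, 7 hold an ISRE match and the Ifit2 window holds a GAS match alone, while another annotated start of Ifit2 has neither. This share follows from the choice of windows. Among called members with a window not shown, Ddx58, Ifih1, Irgm1 and Stat2 hold an ISRE match. Irf1, Irf7, Oasl2, Samd9l, Lgals3bp and Ifi44 hold none. Bst2 and Igtp hold both kinds. RefSeq windows were found for 29 of the 40 members, and an ISRE match occurred in 18 of them (62.1%), whereas 1079 of 27025 genes with a window held one (3.99%). A GAS match occurred in 8 of the 29 (27.6%) and in 2582 of all genes (9.55%). A match describes the letters in a window and says nothing of whether a factor binds there.

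In organoids most members were low. The mean over the 49 libraries was at least 1 TPM for 26 of the 40 members, at least 10 TPM for 8 and below 1 TPM for 14. Lgals3bp, a secreted galectin-binding glycoprotein, was the highest at 452 TPM, followed by Bst2 at 158, Ifi35 at 43.5, Ifi27 at 41.1 and Irf1 at 25.4 TPM. A gene entered a test when its mean over the libraries compared was at least 1 TPM. By this filter 11 members were tested in none of the 12 comparisons between media: Gbp2, Gbp3, Gbp6, Gbp9, Iigp1, Ido1, Ifi44, Mx1, Trim30a, Usp18 and Zbp1. Ido1, which degrades tryptophan, never exceeded 0.552 TPM in the 7 libraries of the 8C condition, and Gbp7, which was tested in 1 comparison, lay between 0.393 and 1.62 TPM there.

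**Figure D1:**
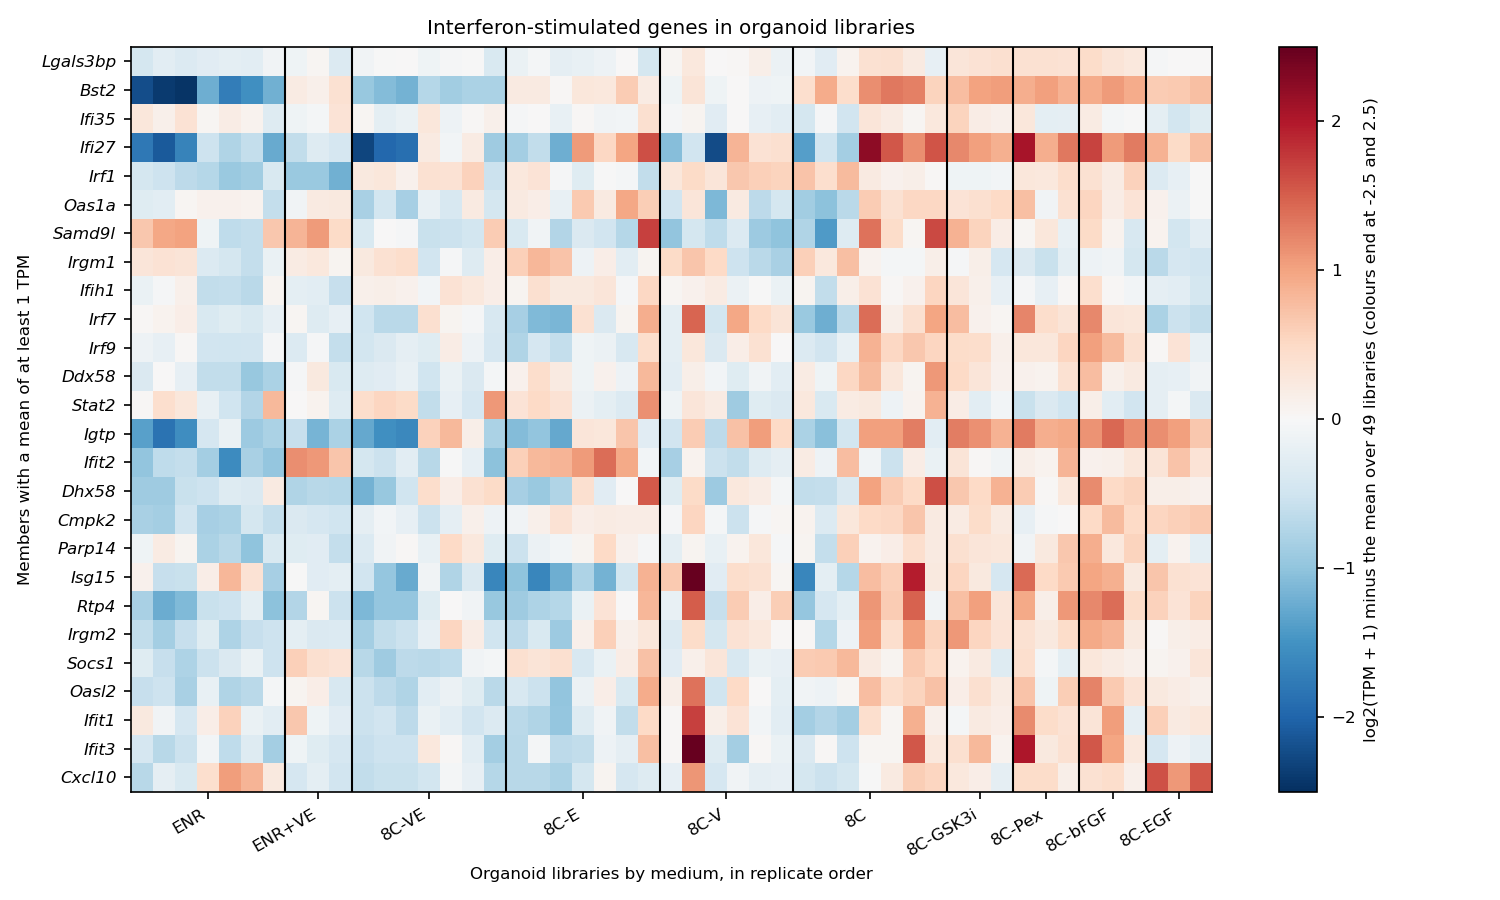
Heat map of the 26 members with a mean of at least 1 TPM (vertical axis, from the highest mean to the lowest) in the 49 organoid libraries (horizontal axis, grouped by medium). Colours give log2(TPM + 1) minus the member's mean over all 49 libraries. Bst2 is below its mean in the 7 ENR libraries and above it in the 7 libraries of the 8C condition, and 8C-V replicate 2 stands out as a column of high values.

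Fold changes below are differences of mean log2(TPM + 1), which understate the change of low genes, with standard errors from limma. A member was called, and is said to have risen or fallen, when its Benjamini-Hochberg adjusted p over all genes tested was below 0.05 and the difference reached 1, which is 2-fold on this scale. The comparisons share the ENR, 8C or 8C-VE libraries and are not independent of each other.

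The 8C condition against ENR asks how the whole medium moved the members. Bst2, Ifi27 and Igtp rose, and no tested member fell. These 3 of 24 tested members (12.5%) compare with 11.9% of the 12665 genes tested that rose and 3.31% that fell, so the share called was close to that of all genes. Of the 24, 21 had a positive difference, and the median difference over the members was 0.66 beside 0.08 over all genes tested. At an unadjusted p below 0.05, 15 members passed, beside 5442 of the 12665 genes. After quantile normalization 8.76% of all genes rose and 4.81% fell, and Bst2 and Ifi27 were the 2 members called. By role, 1 of 7 tested antiviral effectors rose, 1 of 3 IRG GTPases and 1 of 4 other induced genes, while the 4 transcription factors, 3 nucleic acid sensors, 2 secreted proteins or enzymes and 1 feedback inhibitor tested had no call. No guanylate binding protein was high enough to be tested.

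Markers of intestinal cell types moved with the same contrast. Of 28 tested markers 9 fell and 3 rose, among them 3 of 4 Paneth cell, 3 of 4 enterocyte and 2 of 4 goblet cell markers that fell. The Paneth cell markers summed to 4731 to 6722 TPM in ENR and 548 to 1419 TPM in the 8C condition, and the stem cell markers to 1711 to 2980 TPM and 128 to 273 TPM, without overlap. Of the 4 stem cell markers Olfm4 fell, from a mean of 2500 to 24.2 TPM, Cd44 rose from 28.4 to 60.6 TPM, and Lgr5 and Ascl2 were not called. The enterocyte markers summed to 1178 to 9266 TPM and 1177 to 3322 TPM, which overlapped. Between 8C-VE and the 8C condition 9 of 29 markers fell and 2 rose, with the 4 Paneth cell markers among those that fell. The 2 that rose were 1 of 2 tested immune markers and 1 stromal and endothelial marker. In 8C-V and in 8C-E, 1 of 2 tested immune markers was lower than in the 8C condition. The part of these cell types in the members' values was not tested.

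Bst2 encodes tetherin, which holds budding enveloped viruses at the cell surface, and lies on chr8:71534255-71537456. Its level ran from 22.9 to 55.9 TPM in the 7 ENR libraries with a median of 38.8, from 56.8 to 79.4 in 8C-VE with a median of 70.8, and from 174 to 325 in the 8C condition with a median of 249 TPM. In 8C-V it ran from 119 to 164 TPM with a median of 121 over 6 libraries, and in 8C-E from 133 to 202 TPM with a median of 153 over 7. The ranges of ENR, 8C-VE and the 8C condition did not overlap, and both media with a single drug lay between 8C-VE and the 8C condition by their medians, although the highest 8C-E library reached into the range of the 8C condition. On the log2 scale Bst2 rose by 2.69 ± 0.23 (SE, n = 7 and 7) from ENR to the 8C condition (limma, adjusted p = 9.67e-08), a 6.45-fold ratio of mean TPM. ENR+VE held 142, 150 and 171 TPM, all above the highest ENR library and below the lowest library of the 8C condition.

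Ifi27, a small hydrophobic interferon-induced protein on chr12:103434211-103440239, ran from 6.08 to 20.3 TPM in ENR with a median of 11.6 and from 10.8 to 143 TPM in the 8C condition with a median of 67.1. Igtp, an IRG GTPase that acts on the vacuoles of intracellular parasites, ran from 0.41 to 3.55 TPM with a median of 1.74 in ENR and from 1.46 to 11.3 TPM with a median of 3.24 in the 8C condition. Both pairs of ranges overlapped. Ifi27 rose by 1.79 ± 0.52 on the log2 scale (SE, n = 7 and 7; limma, adjusted p = 0.0126). Igtp rose by 1.11 ± 0.39 (SE, n = 7 and 7; limma, adjusted p = 0.0365), and it was no longer called after quantile normalization (0.65, adjusted p = 0.246), with the length trend removed (0.94, adjusted p = 0.0693), with no minimum mean (adjusted p = 0.0527), over numbers 1 to 3 (0.82) or when ENR replicate 1, 2, 3 or 6 or 8C replicate 4, 5 or 6 was left out (adjusted p from 0.0513 to 0.0813). The gene model of Igtp at chr11:58199556-58207591 overlaps that of Irgm2 at chr11:58199618-58222782 on the same strand, so the split of reads between these neighbours is uncertain, as it is within the Gbp, Ifit and Oas families.

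Further members passed the adjusted p without reaching the 2-fold limit. Of all 12665 genes tested, 4440 passed the adjusted p, and 1928 of these also reached the limit. Irf1, a transcription factor that itself drives other members, held 12.1 to 18.1 TPM in ENR and 24.5 to 42.3 TPM in the 8C condition, ranges that did not overlap (difference 0.99 ± 0.14, SE, n = 7 and 7; limma, adjusted p = 3.78e-05). Socs1, which inhibits JAK kinases, held 0.509 to 1.29 TPM and 1.69 to 3.52 TPM, a difference of 0.97. Cmpk2, Ifit2, Rtp4, Irgm2, Ddx58 and Oasl2 differed by between 0.84 and 1.00, and Lgals3bp by 0.35. Socs1, Rtp4, Irgm2 and Oasl2, 4 of the 24 tested members, had means below 1 TPM in ENR and entered the test only through the 8C libraries, where they were high, so their differences are given as values and their calls within subsets of these libraries are no separate finding. Several members lay near the limit, and the count moved with small changes of the data. It was 6 without 8C replicate 2, 5 without 8C replicate 5, 8C replicate 7 or ENR replicate 6, and 11 with 0.1 in place of 1 added to the TPM before the logarithm. These counts stand without the share of all genes in the same fits and show only how far the count moved.

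Members too low for this test also lay apart in some cases. Gbp7, a guanylate binding protein, held 0 to 0.102 TPM in the 7 ENR libraries with a median of 0.0704 and 0.393 to 1.62 TPM in the 8C condition with a median of 0.808. Zbp1 held 0 to 0.179 TPM with a median of 0.142 and 0.278 to 1.28 TPM with a median of 0.787. Neither pair of ranges overlapped, and with means below 1 TPM neither gene was tested. Stat2 in contrast overlapped almost fully, at 2.96 to 10.52 TPM in ENR and 4.02 to 11.1 TPM in the 8C condition (difference 0.14 ± 0.24, SE, n = 7 and 7; limma, adjusted p = 0.694).

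**Figure D2:**
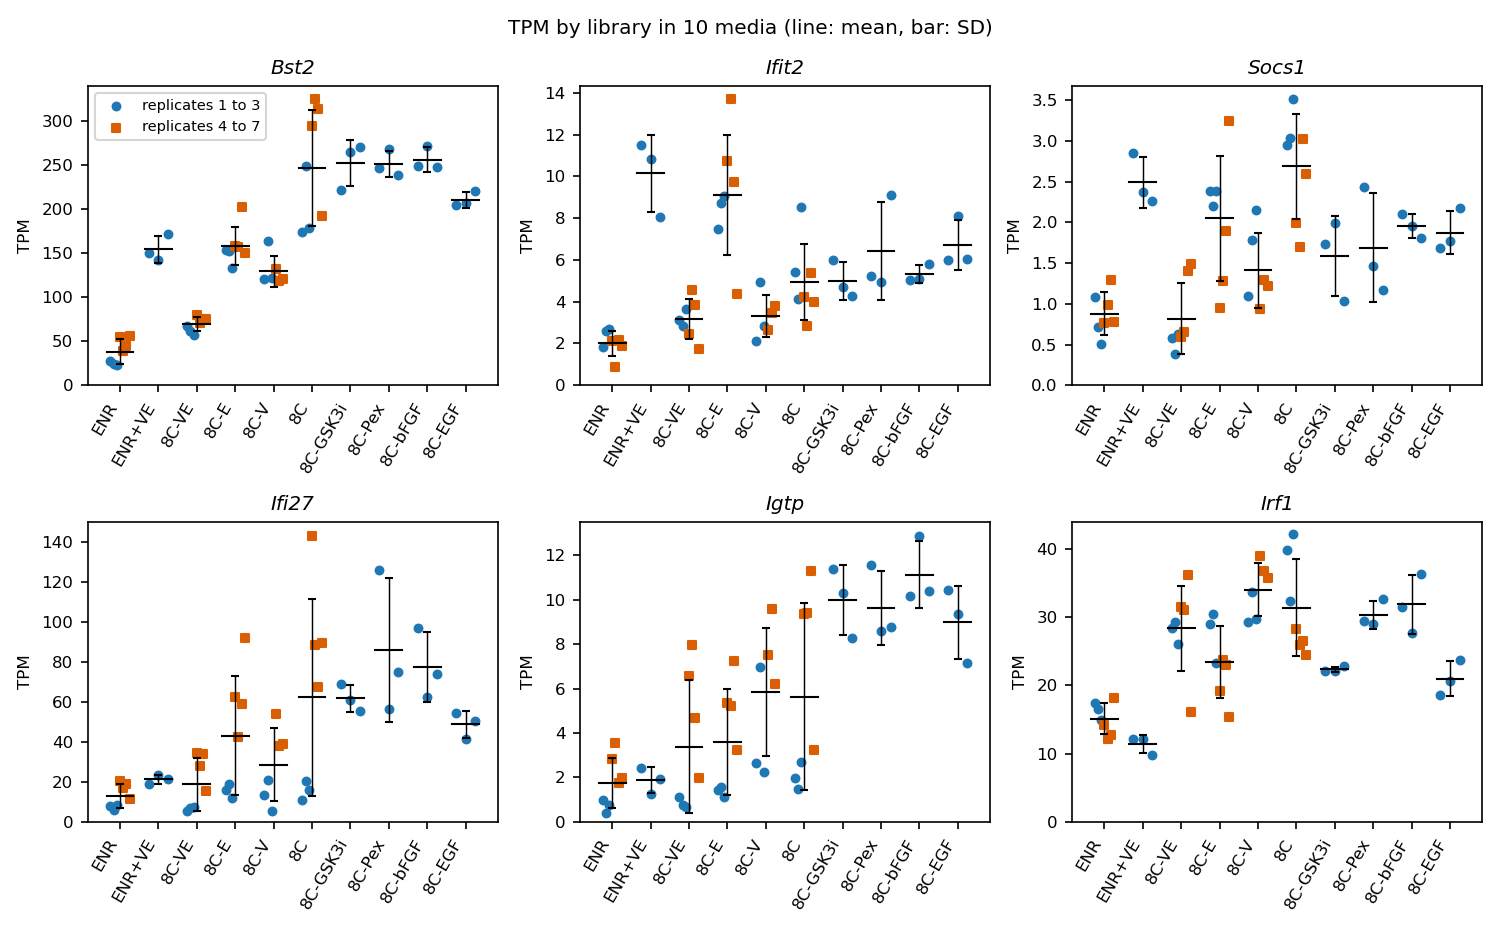
TPM of Bst2, Ifit2, Socs1, Ifi27, Igtp and Irf1 (vertical axes) in each library of the 10 organoid media (horizontal axes), with replicates 1 to 3 in blue and 4 to 7 in orange; in the 8C condition the blue Ifi27 points lie between 10.8 and 20.6 TPM and the orange points between 67.1 and 143 TPM.

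The libraries numbered 1 to 3 and those numbered 4 and above differed in several members, although the labels do not call these sets batches. In the 8C condition Ifi27 held 10.8, 20.6 and 15.8 TPM in replicates 1 to 3 but 143, 88.5, 67.1 and 89.3 TPM in replicates 4 to 7. Igtp held 1.95, 1.46 and 2.699 TPM against 9.37, 9.42, 11.3 and 3.24 TPM. Irf7, the factor that drives interferon genes, held 3.07, 2.34 and 3.85 TPM against 19.3, 7.59, 9.21 and 14.4 TPM. In all 3 members each of the later libraries was above each of the earlier ones.

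Within the sets, the comparison of the 8C condition with ENR gave other members. Over numbers 1 to 3 alone, 6 of 20 tested members were called: Bst2, Ifit2, Irf1 and Socs1 rose, and Irf7 and Samd9l fell, where 11.9% of all genes rose and 5.82% fell. Over numbers 4 to 6 alone, 14 of 27 rose (Bst2, Cmpk2, Ddx58, Dhx58, Ifi27, Igtp, Irf7, Irf9, Irgm2, Oasl2, Parp14, Rtp4, Samd9l and Xaf1), where 14.5% of all genes rose, and the median difference was 1.00 over the members and 0.18 over all genes. Xaf1, Irgm2, Oasl2 and Rtp4, 4 of these 14, had means below 1 TPM in ENR within the set and entered it only through the 8C libraries, as Socs1 did over numbers 1 to 3. Bst2 was called in both sets. Samd9l, an antiviral protein that restrains cell growth, and Irf7 thus passed with opposite signs in the sets. What distinguishes the sets, and its part in the pooled result, was not tested.

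The 8C condition against 8C-VE asks what the 2 drugs together did within the same medium. Bst2 and Socs1 rose among 23 tested members (8.70%), and no member fell, beside 9.06% of 12622 genes that rose and 1.62% that fell. The median difference was 0.47 over the members and 0.01 over all genes, and 10 members passed an unadjusted p below 0.05, beside 4323 of the 12622 genes. After quantile normalization 6.83% of all genes rose and 2.61% fell. Bst2 rose by 1.78 ± 0.15 on the log2 scale (SE, n = 7 and 7; limma, adjusted p = 2.05e-07), a ratio of mean TPM of 3.56. Socs1 lay between 0.378 and 1.49 TPM with a median of 0.624 in 8C-VE and between 1.69 and 3.52 TPM with a median of 2.95 in the 8C condition, a difference of 1.03. Socs1, Isg15, Rtp4 and Oasl2, 4 of the 23 tested members, had means below 1 TPM in 8C-VE and entered this test only through the 8C libraries, so calls of these genes are no separate finding. Bst2 was the 1 call not set by the filter. Socs1 differed by 0.55 after quantile normalization and by 0.94 with the length trend removed, and so lost the call, as it did without 8C-VE replicate 2 (0.97) or 8C replicate 3 (0.98). Without 8C replicate 1, 5 members were called (Bst2, Ifi27, Isg15, Rtp4 and Socs1), and without 8C-VE replicate 2 Bst2 alone was called. Irf1 differed by 0.15 ± 0.17 between these media (SE, n = 7 and 7; limma, adjusted p = 0.592), whereas between 8C-VE and ENR it differed by 0.84 ± 0.15 (SE, n = 7 and 7; limma, adjusted p = 0.00284).

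Within the numbered sets, 3 members rose over numbers 1 to 3 (Bst2, Ifi27 and Socs1, beside 10.3% of all genes) and 5 over numbers 4 to 6 (Bst2, Ifi27, Isg15, Rtp4 and Samd9l, beside 10.4%). Ifi27 thus passed within each set and missed the threshold when the sets were pooled (1.50 ± 0.59, SE, n = 7 and 7; limma, adjusted p = 0.0794).

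The base of the 8C medium without drugs, 8C-VE against ENR, had no called member among 19 tested, while 3.19% of 11990 genes were called, 1.13% higher and 2.07% lower. limma gave 7 members and 2689 of the 11990 genes an unadjusted p below 0.05, and the median difference was 0.24 over the members and 0.08 over all genes. Bst2 nonetheless differed without overlap, by 0.92 ± 0.20 (SE, n = 7 and 7; limma, adjusted p = 0.00761), below the 2-fold limit, and it was the 1 member called when ENR replicate 4 or 7 was left out. Both numbered sets alone called members. Over numbers 1 to 3 Bst2 rose and Samd9l fell, beside 1.93% of all genes that rose and 4.78% that fell. Over numbers 4 to 6 Igtp, Irf1 and Parp14 rose and Cxcl10 fell, beside 2.83% and 1.77%, and Cxcl10 was below 1 TPM on average in 8C-VE and entered only through ENR.

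Each drug was then compared alone with 8C-VE. With VPA alone, which is 8C-E against 8C-VE, Bst2 and Ifit2 rose among 22 tested members (9.09%), beside 4.18% of 12238 genes that were called, 3.11% higher and 1.07% lower, with a median of 0.13 over the members and 0.03 over all genes. Ifit2, which binds RNA and restrains translation in infected cells and lies on chr19:34550694-34576419, ran from 1.75 to 4.58 TPM with a median of 3.14 in 8C-VE and from 4.36 to 13.7 TPM with a median of 9.07 in 8C-E. The ranges overlapped at 1 library of each medium, 8C-E replicate 7 and 8C-VE replicate 5. Ifit2 rose by 1.25 ± 0.21 (SE, n = 7 and 7; limma, adjusted p = 0.000686) and Bst2 by 1.17 ± 0.10 (SE, n = 7 and 7; limma, adjusted p = 1.43e-06). Same-numbered libraries of these media varied together, and a fit with the number as a block called 3 members, with Ifi27 as the addition, beside 3.33% of all genes that rose. Over numbers 1 to 3, 4 members rose (Bst2, Ifi27, Ifit2 and Socs1), beside 4.05% of all genes, and over numbers 4 to 6 Bst2 and Ifit2 rose, beside 3.1%. Socs1, Isg15 and Rtp4 had means below 1 TPM in 8C-VE and entered this comparison only through 8C-E. Of 29 tested cell type markers 8 fell and none rose, with 3 of 4 Paneth cell, 2 of 4 goblet cell, 2 of 4 enteroendocrine and 1 of 4 enterocyte markers among them. The Paneth cell markers summed to 4788 to 7521 TPM in 8C-VE and 1817 to 3238 TPM in 8C-E, without overlap, and their part in the members' values was not tested.

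EPZ6438 alone, which is 8C-V against 8C-VE, had no called member among 26 tested, beside 3.22% of 12263 genes that were called, 2.96% higher and 0.261% lower. limma gave 8 members and 1733 of the 12263 genes an unadjusted p below 0.05, and the median was 0.28 over the members and -0.02 over all genes. Bst2 differed by 0.89 ± 0.10 with no overlap of its ranges (SE, n = 6 and 7; limma, adjusted p = 5.34e-05), while Ifit2, at 2.12 to 4.95 TPM in 8C-V, differed by 0.04 ± 0.19 (SE, n = 6 and 7; limma, adjusted p = 0.938). Without 8C-V replicate 2, Isg15 was the 1 member called, and without 8C-V replicate 3 it was Rtp4, both of which had means below 1 TPM in 8C-VE and entered only through 8C-V. Over numbers 1 to 3, Bst2 and Igtp rose, beside 4.39% of all genes, and there Igtp too was below 1 TPM on average in 8C-VE and entered only through 8C-V, with its highest value in 8C-V replicate 2.

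Taking a drug out of the complete medium gave the reverse view. In 8C-V against the 8C condition no member among 27 was called, beside 5.2% of 12723 genes that were called, 1.11% higher and 4.09% lower. By limma 3 members and 3226 of the 12723 genes had an unadjusted p below 0.05. After quantile normalization 1.55% of all genes rose and 2.88% fell, and without 8C replicate 2 Samd9l was called lower. Bst2 differed by -0.89 ± 0.16 (SE, n = 6 and 7; limma, adjusted p = 0.00192) and Socs1 by -0.61 ± 0.17 (SE, n = 6 and 7; limma, adjusted p = 0.0289). In 8C-E against the 8C condition no member among 23 was called either, beside 4.2% of 12655 genes that were called, 0.229% higher and 3.97% lower. By limma 4 members and 1854 of the 12655 genes had an unadjusted p below 0.05. Here Bst2 differed by -0.61 ± 0.15 (SE, n = 7 and 7; limma, adjusted p = 0.0215) and Ifit2 by 0.77 ± 0.22 in the other direction (SE, n = 7 and 7; limma, adjusted p = 0.0478). The medium with VPA and no EPZ6438 therefore held the highest mean level of Ifit2 among the 8C media, 9.12 ± 2.87 TPM (SD, n = 7), beside 4.93 ± 1.81 TPM (SD, n = 7) in the complete 8C condition.

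The interaction of VPA and EPZ6438, which asks whether the change with one drug depends on the other, called no member among 25 tested, beside 0.581% of 12556 genes, 0.438% higher and 0.143% lower. By limma 1 member and 478 of the 12556 genes had an unadjusted p below 0.05, and the member was Ifit2 (-0.81 ± 0.30, SE, over 27 libraries; limma, adjusted p = 0.569). For Bst2 the interaction was -0.28 ± 0.19 (SE, over 27 libraries; limma, adjusted p = 1).

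Both drugs in ENR gave another context. In ENR+VE against ENR, Bst2 and Ifit2 rose among 22 tested members (9.09%), beside 8.87% of 12324 genes that were called, 8.13% higher and 0.738% lower, and the median was 0.12 over the members and 0.09 over all genes. After quantile normalization 5.97% of all genes rose and 1.94% fell. Ifit2 held 8.06, 10.8 and 11.5 TPM in ENR+VE, all above the 0.878 to 2.69 TPM of the 7 ENR libraries, and rose by 1.90 ± 0.21 (SE, n = 3 and 7; limma, adjusted p = 5.71e-05). Bst2 rose by 2.06 ± 0.29 (SE, n = 3 and 7; limma, adjusted p = 0.000334). Socs1 held 2.26, 2.37 and 2.85 TPM, above each ENR library, and with a mean below 1 TPM in ENR it entered the test only through ENR+VE. Irf1, at 9.82 to 12.1 TPM, was below each ENR library and differed by -0.38 ± 0.15 (SE, n = 3 and 7; limma, adjusted p = 0.101). Of 28 tested cell type markers 3 fell (2 of 4 Paneth cell and 1 of 4 stem cell markers) and 1 enteroendocrine marker rose. The Paneth cell markers summed to 4731 to 6722 TPM in ENR and 1574 to 1795 TPM in ENR+VE, and the stem cell markers to 1711 to 2980 TPM and 1096 to 1436 TPM, both without overlap. The part of these cells in the members' values was not tested.

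The response of Ifit2 to both drugs differed between the media. Its difference was 0.49 ± 0.20 between the 8C condition and 8C-VE (SE, n = 7 and 7; limma, adjusted p = 0.0957) and 1.90 between ENR+VE and ENR, and the interaction was -1.41 ± 0.31 (SE, over 24 libraries; limma, adjusted p = 0.0257). It was the 1 member called among 23 tested, where 0.58% of 12591 genes were called, 0.318% lower and 0.262% higher (0.262 and 0.334% with the length trend removed). The adjusted p was 0.0729 with 0.1 added before the logarithm and 0.0594 with the replicate number as a block. The doses of the drugs in ENR are not stated, so dose and medium cannot be told apart.

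**Figure D3:**
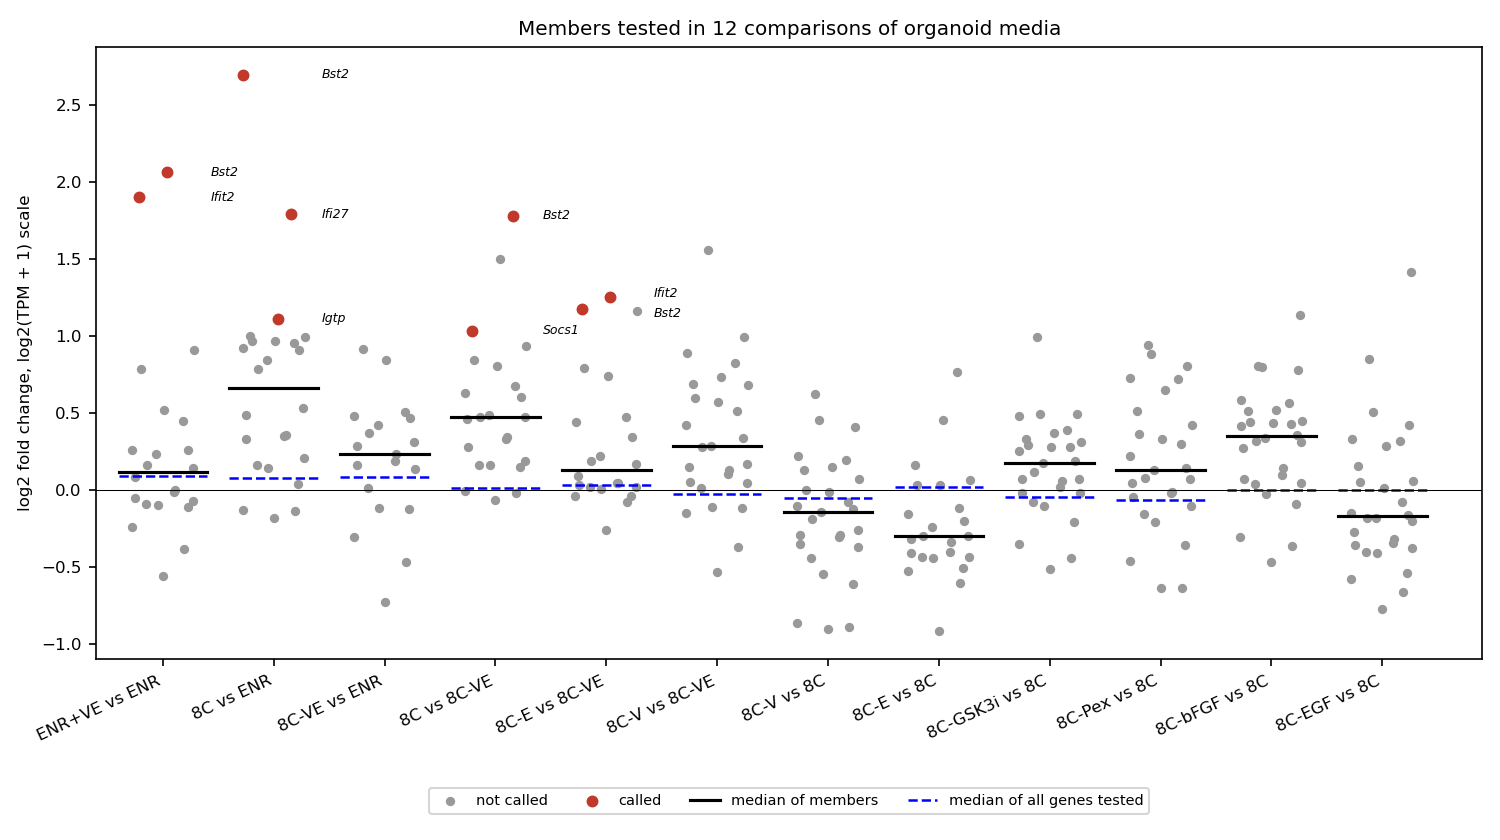
Differences of mean log2(TPM + 1) (vertical axis) for the members tested in each of 12 comparisons of organoid media (horizontal axis), with called members in red and named, a black bar at the median of the members and a dashed blue bar at the median of all genes tested. Bst2 is among the called members in 4 comparisons, and in the 8C condition against ENR the members' median is 0.66 beside 0.08 for all genes.

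Leaving out a single other component of the medium called no member by limma. In 8C-GSK3i, 8C-Pex, 8C-bFGF and 8C-EGF against the 8C condition, 0%, 0.482%, 0.00779% and 0.451% of all genes were called. An unadjusted p below 0.05 was given to 2, 2, 2 and 4 members, beside 836 of 12806, 1676 of 12860, 713 of 12834 and 1626 of 12849 genes. Bst2 held means of 252, 251, 256 and 210.5 TPM in these media, within the range of the 7 libraries of the 8C condition. Cxcl10, a chemokine that attracts T cells and the member nearest to a call, held 4.75, 3.05 and 4.62 TPM in 8C-EGF, above the 0.327 to 1.95 TPM of the 8C condition, and was called when 8C replicate 6 or 7 was left out. In those fits its mean in the 8C condition was below 1 TPM, so it entered only through 8C-EGF and these calls are no separate finding. These comparisons turned on which 8C libraries they used. Against 8C replicates 1 to 3 alone, 7, 7, 9 and 5 members were called, with Ifi27 and Igtp higher in all 4 media and 1, 3, 3 and 2 of the calls on members that entered only through the medium compared, beside 4.06, 3.38, 3.16 and 1.84% of all genes that were higher and 3.06, 2.87, 2.37 and 1.72% that were lower. Against replicates 4 to 6 alone 0, 0, 0 and 2 were called, beside 0.0472, 0.532, 0 and 0.728% higher and 0.00787, 0.289, 0.00784 and 1.94% lower.

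Among other genes of the pathway, taken from a list of 64 of which 62 were in the table, 39 were tested between the 8C condition and ENR and 6 rose, beside the 11.9% of all genes that rose. Tmem173, which encodes the DNA-sensing adaptor STING, went from a mean of 9.02 to 59.6 TPM (2.51 ± 0.28, SE, n = 7 and 7; limma, adjusted p = 2.72e-06). Psmb8, a subunit of the immunoproteasome, went from 2.48 to 15.7 TPM (2.26 ± 0.14, SE, n = 7 and 7; limma, adjusted p = 2.47e-09). Ly6e, Parp12, Ifi27l2a and Ifitm1 were the others that rose, and none fell. The 6 receptor genes and the kinases Jak1, Jak2 and Tyk2 were tested and none was called.

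Between the 8C condition and 8C-VE, Tmem173, Ifitm1 and Psmb8 rose among 39, beside the 9.06% of all genes that rose. Ifitm1, a membrane protein that blocks virus entry, passed the expression filter in both comparisons through the 8C libraries alone, so its call is no separate finding. Its mean was 0.474 TPM in ENR, 0.354 in 8C-VE, 0.551 in 8C-E, 0.130 in 8C-V and 18.2 TPM in the 8C condition, where its libraries ran from 1.85 to 54.3 TPM. In other media with both drugs its mean was 0.783 TPM in ENR+VE, 0.272 in 8C-GSK3i, 2.04 in 8C-Pex, 8.30 in 8C-bFGF and 91.1 TPM in 8C-EGF, so it was not high in each of them. In ENR+VE against ENR none of 38 tested pathway genes was called, beside 8.87% of all genes. Between 8C-VE and ENR, without either drug, 2 of 38 tested pathway genes rose and 0 fell. They were 1 of the sensing adaptors and kinases and 1 of the other induced genes, beside 135 of 11990 genes that rose and 248 that fell. Genes for interferons themselves passed the expression filter in no organoid or crypt comparison.

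In crypts the members were read against 2 Normal libraries that differed from each other. Isg15, a ubiquitin-like protein that is conjugated to other proteins, held 55.1 and 13.2 TPM, Igtp 27.5 and 6.99 TPM, and the 12 immune markers 713 and 270 TPM. The mean over the crypt libraries was at least 1 TPM for 32 of the 40 members and at least 10 TPM for 15, with Lgals3bp at 128, Ifi35 at 56.5, Isg15 at 45.1, Ifi27 at 44.5 and Irf7 at 43.9 TPM. The 32 were tested in each comparison in a single limma fit over the 18 libraries, with 10802 genes.

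Irradiation moved the whole transcriptome on this scale. The median difference from Normal over all genes tested was -0.36 at 1 dpi, -0.61 at 2 dpi, -1.03 at 3 dpi and 0.27 at 5 dpi. Mitochondrial transcripts took 12.7 and 18.1% of the TPM in Normal, 32.6 and 39.9% at 2 dpi and 37.9 and 48.4% at 3 dpi, and long transcripts were lower relative to short ones at 3 dpi than in Normal. Member differences are therefore given beside that median and under scalings that remove the shift, and the part of mitochondrial share and transcript length in each result was not tested.

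At 3 dpi 8 of the 32 tested members rose in IR crypts (Ido1, Isg15, Gbp2, Usp18, Ifit3, Zbp1, Ifi44 and Ifit1), beside 2.56% of all genes, and 6 fell (Irf1, Stat2, Parp14, Ddx58, Lgals3bp and Irgm1), beside 51.3% of all genes (53.8% either way). The median was 0.15 over the members and -1.03 over all genes. After quantile normalization 18 members were higher and 1, Irf1, was lower, beside 11.1 and 13.6% of all genes, and with the length trend removed the counts were the same, beside 10.1 and 12% of all genes. The 8 members that rose kept their call under both scalings and with mitochondrial genes removed, which gave 5.37% of all genes higher and 30.7% lower. Of the 6 that fell, Irf1 kept its call under all 3, Stat2 and Parp14 kept it only with mitochondrial genes removed, and Ddx58 and Lgals3bp lost it under each. Irgm1 lost it as well and changed sign after quantile normalization (0.18) and with the length trend removed (0.14). Lgals3bp and Irgm1 also lost the call without Normal replicate 1 or IR replicate 1. By role, 3 of 8 antiviral effectors, 1 of 2 guanylate binding proteins and the 1 feedback inhibitor tested rose, while 2 of 4 transcription factors and 1 of 3 IRG GTPases fell. The nucleic acid sensors (4 tested), the secreted proteins and enzymes (3) and the other induced genes (7) each had 1 member that rose and 1 that fell. The 12 immune markers summed to 191 and 674 TPM at 3 dpi and to 270 and 713 TPM in Normal, ranges that overlapped. Of 38 tested cell type markers 19 fell at 3 dpi and 2 rose, beside the 51.3% of all genes that fell, with 5 of 11 immune, 4 of 6 epithelial and 3 of 4 enterocyte markers among those that fell. The enterocyte markers summed to 5382 and 10080 TPM in Normal and to 1522 and 4183 TPM at 3 dpi. The part of these cells in the members' values was not tested.

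Ido1, on chr8:24584136-24597009, held 0.641 and 0.222 TPM in Normal, 0.535 and 0.726 at 1 dpi, 4.48 and 3.21 at 2 dpi, 12.9 and 18.2 at 3 dpi and 5.16 and 19.4 TPM at 5 dpi in IR crypts. From 2 dpi on each IR library was above both Normal libraries. The difference from Normal was 1.76 at 2 dpi, 3.53 at 3 dpi and 2.98 at 5 dpi on the log2 scale. Ido1 passed the filter, a mean of 1 TPM over the 18 libraries, through irradiated libraries in which it was high, so its calls against Normal are no separate finding. At 5 dpi the 12 immune markers summed to 16.4 and 19.1 TPM in IR crypts and Ptprc was at 0.573 and 0.578 TPM; their part in the Ido1 values was not tested.

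Isg15 held 113 and 94.2 TPM at 3 dpi, above both Normal libraries, and rose by 1.88 ± 0.45 (SE, n = 2 and 2; limma, adjusted p = 0.002). Gbp2, a GTPase that attacks pathogen vacuoles, held 1.51 and 1.03 TPM in Normal and 5.33 and 9.91 TPM at 3 dpi, and rose by 1.88 ± 0.31 (SE, n = 2 and 2; limma, adjusted p = 8.49e-05). Zbp1, a sensor of Z-form nucleic acid, held 29.4 and 10.8 TPM in Normal and 52.7 and 45.3 TPM at 3 dpi, and rose by 1.39 ± 0.36 (SE, n = 2 and 2; limma, adjusted p = 0.00314). None of these ranges overlapped. Without Normal replicate 2 Isg15 differed by 0.89 and Zbp1 by 0.71, below the 2-fold limit, as did Ifi44 and Ifit1 (0.44 and 0.32). Usp18, which strips Isg15 from proteins and restrains the receptor, rose by 1.64 ± 0.32, Ifit3 by 1.59 ± 0.34, Ifi44 by 1.06 ± 0.36 and Ifit1 by 1.01 ± 0.33 (SE, n = 2 and 2). Ifi44 also lost the call without IR replicate 2, and Ifit1 without IR replicate 1.

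Irf1 held 82.1 and 69.4 TPM in Normal and was lower in each IR library, at 38.4 and 19.6 TPM at 1 dpi, 35.9 and 29.1 at 2 dpi, 11.0 and 14.6 at 3 dpi and 34.4 and 30.1 TPM at 5 dpi. It was the 1 member called in the same direction on all 4 days. Its difference was -2.48 ± 0.26 at 3 dpi (SE, n = 2 and 2; limma, adjusted p = 2.5e-06), which is larger than the shift of -1.03 over all genes, and -1.36 after quantile normalization (adjusted p = 0.000376). At 1 and 2 dpi quantile normalization reduced it to -0.99 and -0.66, below the 2-fold limit, as did leaving out IR replicate 2 at 1 dpi (-0.96). Stat2, a part of the ISRE-binding complex, held 7.01 and 5.07 TPM in Normal and 0.969 and 0.619 TPM at 3 dpi, and fell by 1.97 ± 0.40 on the log2 scale (SE, n = 2 and 2; limma, adjusted p = 0.000526).

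On the other days fewer members were called. At 1 dpi Irf1 fell and no member rose, beside 6.92% of genes that were called, 1.43% higher and 5.48% lower. By limma 3 members and 3555 of 10802 genes had an unadjusted p below 0.05. The count called changed when either Normal library or IR replicate 1 was left out, which leaves 1 library in a group. After quantile normalization the count was 0, beside 2.95% of genes that rose and 1.68% that fell. At 2 dpi Ido1, Usp18, Ifit1 and Irf7 rose and Irf1 and Irgm1 fell, beside 30.8% of genes that were called, 4.55% higher and 26.2% lower, with a median of 0.22 over the members and -0.61 over all genes. After quantile normalization 11 members rose at 2 dpi and none fell, beside 9.66 and 7.69% of all genes. Usp18, Ifit1 and Irf7 lost the call without Normal replicate 2, and Irgm1 without Normal replicate 1. At 5 dpi Ido1 rose and Irf1 and Igtp fell, beside 10.2% of genes that rose and 5.61% that fell, with a median of -0.27 over the members and 0.27 over all genes. After quantile normalization 5.55% of genes rose and 6.39% fell at 5 dpi. Of 38 tested cell type markers, 4 fell and 2 rose at 1 dpi, 11 fell and 4 rose at 2 dpi, and 16 fell and 3 rose at 5 dpi. Of 11 tested immune markers, 3, 4 and 10 fell on these days and 0 rose. The part of these cells in the members' values was not tested. Leaving out 1 library moved the Igtp difference at 5 dpi to between -2.37 and -0.53, and Igtp lost the call without Normal replicate 1 or either IR library.

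**Figure D4:**
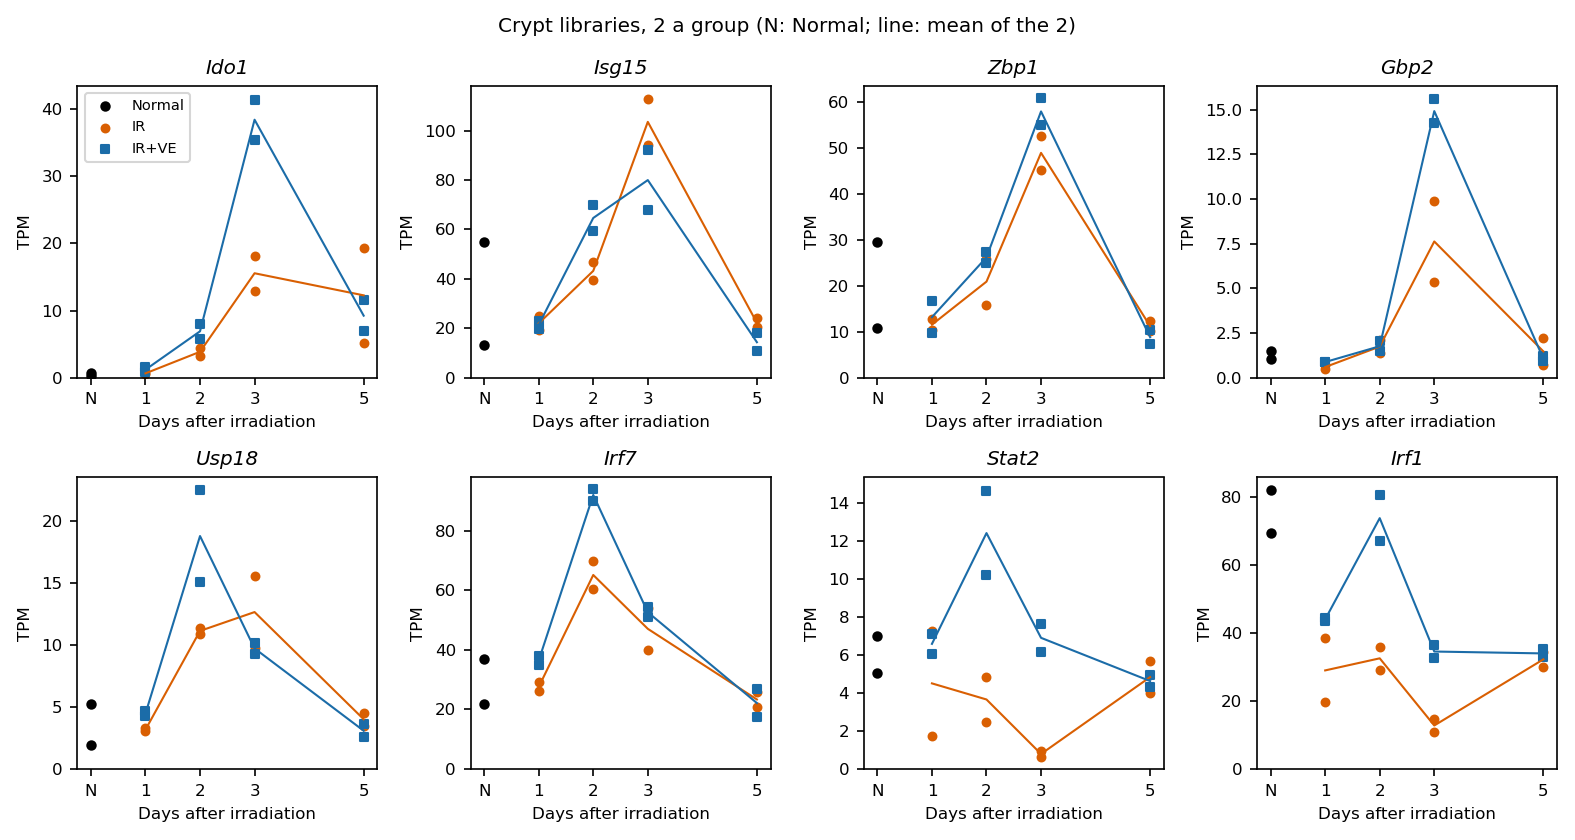
TPM of Ido1, Isg15, Zbp1, Gbp2, Usp18, Irf7, Stat2 and Irf1 (vertical axes) in each crypt library against days after irradiation (horizontal axes), for Normal, IR and IR+VE; at 3 dpi Ido1 lies at 12.9 and 18.2 TPM in IR and at 35.5 and 41.4 TPM in IR+VE.

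The drugs were compared with irradiation alone on the same day. At 1 dpi limma called no member among 32, beside 0.00926% of genes that rose and 0% that fell. It gave 4 members and 1424 of 10802 genes an unadjusted p below 0.05. The calls changed when IR replicate 1 was left out, which leaves 1 library in that group. At 5 dpi limma again called none, beside 0.0185% of genes that rose and 0% that fell, and it gave 1 member and 178 of 10802 genes an unadjusted p below 0.05. There 28 of the 32 members had a negative difference, with a median of -0.31 beside 0.03 over all genes.

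At 2 dpi Stat2, Oasl2, Parp14, Ifih1, Irf1 and Samd9l rose with the drugs (18.8% of the 32), beside 8.31% of all genes that rose and 0.0648% that fell, and beside 2 of 38 cell type markers that rose (1 epithelial and 1 immune), with a median of 0.52 over the members and 0.42 over all genes. Stat2 held 4.85 and 2.46 TPM in IR and 10.2 and 14.6 TPM in IR+VE, without overlap, and rose by 1.55 ± 0.40 (SE, n = 2 and 2; limma, adjusted p = 0.0348). Ifih1, the RNA sensor MDA5, held 10.8 and 7.64 TPM and 19.0 and 26.3 TPM, and rose by 1.22 ± 0.30 (SE, n = 2 and 2; limma, adjusted p = 0.0325). These calls did not hold under another scaling. After quantile normalization, with the length trend removed or with mitochondrial genes removed, 0 members and 0 genes in all were called at 2 dpi, and 0 members were called without IR replicate 2 or without either IR+VE library (adjusted p from 0.119 to 0.328).

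At 3 dpi Stat2, Oasl2, Parp14, Ifih1, Irf1, Ido1, Ddx58 and Samd9l rose with the drugs (25% of the 32), beside 31.6% of all genes that rose and 0.0555% that fell. The difference between these shares was not tested. Of 38 tested cell type markers 8 rose as well and none fell: 2 epithelial, 2 enteroendocrine and 1 each of the goblet cell, immune, stem cell and stromal and endothelial markers. The epithelial markers summed to 2351 and 3573 TPM in IR and 4914 and 5148 TPM in IR+VE, and the stem cell markers to 20.4 and 23.9 TPM and 55.3 and 68.9 TPM. Their part in the members' values was not tested. The medians were 0.55 over the members and 0.69 over all genes. Stat2 held 0.969 and 0.619 TPM in IR and 7.62 and 6.18 TPM in IR+VE and rose by 2.14 ± 0.40 (SE, n = 2 and 2; limma, adjusted p = 0.000873). Stat2 and Parp14 were below 1 TPM on average in IR at 3 dpi, but they did not owe the filter to the drug-treated libraries of that day, without which they averaged 5.43 and 3.93 TPM over the crypts. Stat2 was the 1 of the 8 that kept the call after quantile normalization, with 8.17% of all genes higher and 3.34% lower, and with the length trend removed, with 4.95% higher and 1.69% lower. Ido1 held 35.5 and 41.4 TPM with the drugs, above both IR libraries, and rose by 1.27 ± 0.43 (SE, n = 2 and 2; limma, adjusted p = 0.0222), but its adjusted p was 0.282 after quantile normalization and it lost the call without IR replicate 1 or either IR+VE library. Samd9l lost the call without IR replicate 1 or IR+VE replicate 1, and Ddx58 without IR+VE replicate 1. Under that scaling Cmpk2 and Usp18 were called lower. Mitochondrial transcripts took 25.4 and 41.5% of the TPM in IR+VE and 37.9 and 48.4% in IR at 3 dpi, and their part in these values was not tested.

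Averaged over the 4 days, Stat2 was the 1 member called with the drugs (1.08 ± 0.20, SE, n = 8 and 8; limma, adjusted p = 0.00108), beside 3.54% of all genes that rose and 0.00926% that fell, and it was below the 2-fold limit after quantile normalization (0.65), with the length trend removed (0.60), and without IR replicate 2 of 1 dpi (0.88) or of 2 dpi (0.99). The median was 0.24 over the members and 0.36 over all genes. A test of whether the drug difference varied with the day called no member among 32 (limma's moderated F test), beside 1.75% of all genes. At an unadjusted p below 0.05 this F test had 10 members, beside 3030 of 10802 genes.

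Of the other pathway genes 46 were tested in crypts. At 3 dpi in IR crypts 1 rose, Ifit1bl1, and 22 fell, among them the receptor genes Ifnar1, Ifngr1 and Ifngr2, the kinases Jak1, Jak2 and Tyk2 and the adaptor Mavs, beside the 51.3% of all genes that fell. With the drugs at 3 dpi 18 of the 46 rose, including Jak1, Jak2 and Tyk2, beside the 31.6% of all genes.

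**Figure D5:**
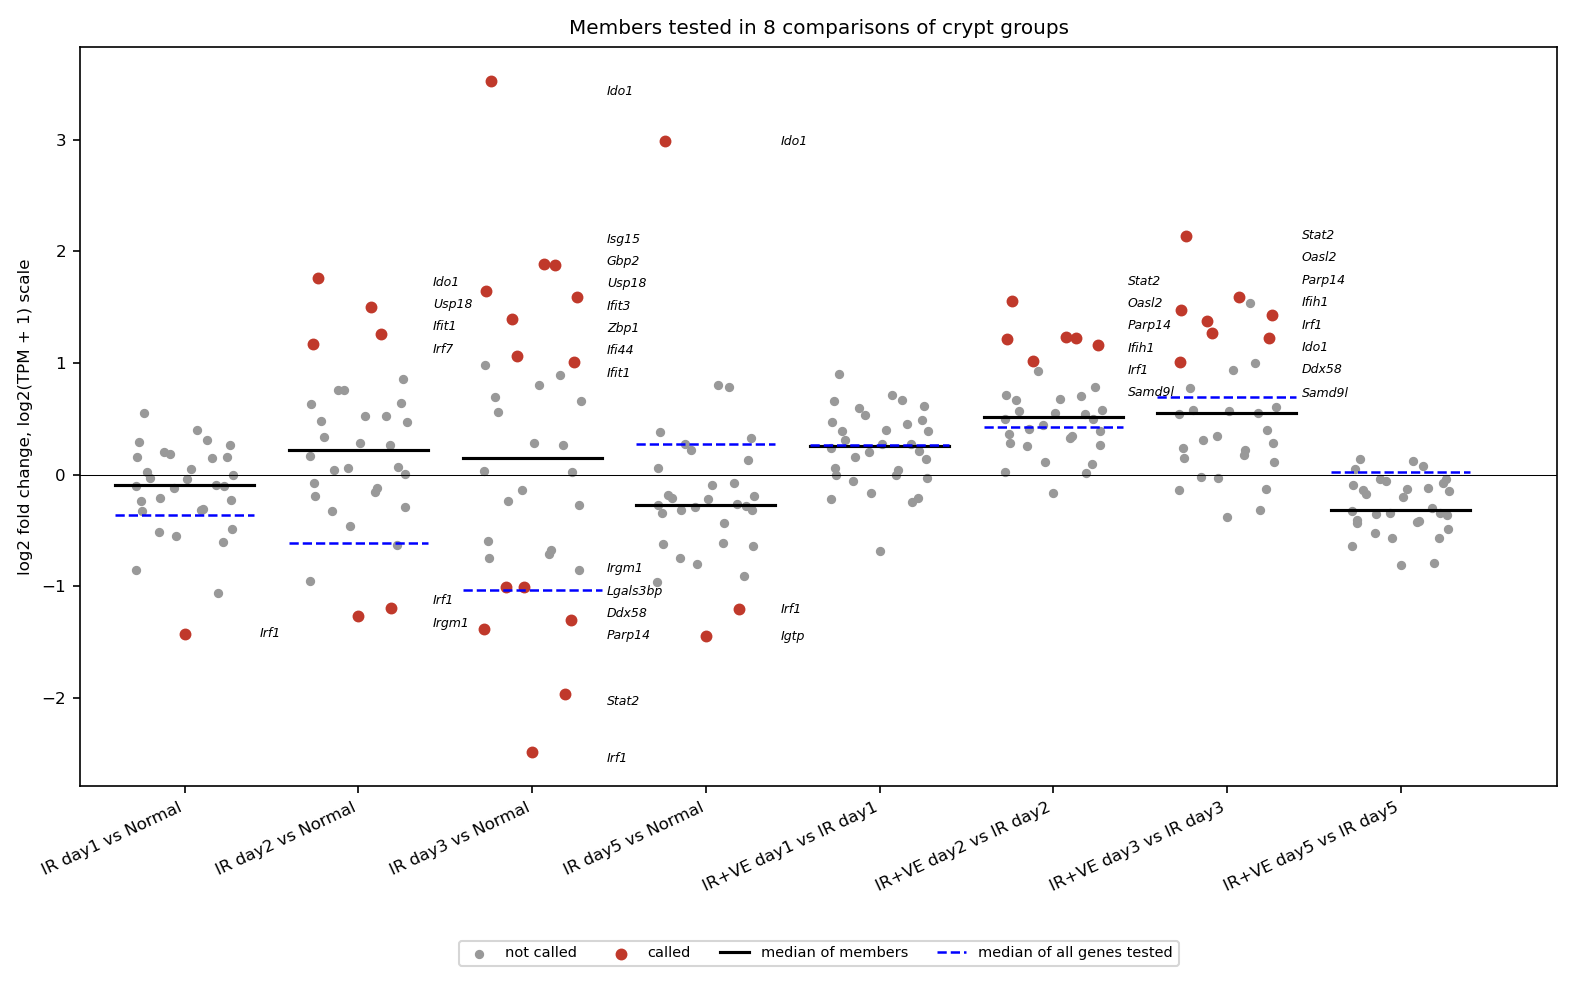
Differences of mean log2(TPM + 1) (vertical axis) for the 32 members tested in each of 8 comparisons of crypt groups (horizontal axis), with called members in red and named, a black bar at the median of the members and a dashed blue bar at the median of all genes tested. At 3 dpi against Normal the members' median is 0.15 and the median of all genes is -1.03, and with the drugs at 3 dpi the medians are 0.55 and 0.69.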

How the data were processed

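RNA of mouse intestinal organoids (49 libraries) and crypts (18 libraries) was sequenced in bulk. Per the labels and methods, the authors trimmed reads with Trimmomatic 0.39, aligned them to mm10 with STAR 2.7.3a, counted genes with featureCounts and deposited 1 table of TPM, transcript abundances scaled for length and library total. How counts became TPM is not given in the sources used here. The organoid and crypt sets were tested separately, because their column sums differ (983801 to 988144 and 819346 to 910935 TPM), and no level was compared across them.

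The members, gene lists and tests were chosen with earlier results of these data known. Values were transformed as log2(TPM + 1), genes whose mean over the compared libraries reached 1 TPM were kept, and limma 3.58.1 in R 4.3.3 was fitted, per organoid comparison over its own groups and over all 18 crypt libraries, with Benjamini-Hochberg adjustment over all genes tested and a limit of 0.05 and 2-fold. The code was tested on simulated data. Members named were those called in a comparison (up to 10), the 5 with the highest mean per set, and Igtp, Gbp7, Stat2, Ido1, Zbp1 and Socs1 of the study's injury-associated signature, which its authors built from published injury datasets. Others were named after their values were seen. Gene positions and lengths came from GENCODE vM21 (GRCm38). Same-numbered libraries deviated together in every pair for 8C-VE against ENR, 8C-E against 8C-VE, 8C-V against 8C-VE and 8C-V against 8C (correlations from 0.106 to 0.775), so fits blocked on the number were read for these. Alternatives were a pseudocount of 0.1, a minimum mean of 0 or 5 TPM, quantile normalization, no fold limit, all 10 organoid groups in the fit, crypts without the drug groups, the block, library numbers 1 to 3 or 4 to 6 alone, and each replicate left out. Removal of the trend with transcript length (lowess span 0.3) and removal of mitochondrial genes were added after the data were seen. No library pair held identical values.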

Additional observations from a re-analysis of the deposited data

Results flagged for a closer look

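Single libraries stood apart from the rest of their group in 13 of 135 tests of a member's highest or lowest value in organoid groups of 6 or 7 libraries (Dixon's test at its 95% critical value), where chance gives about 1 in 20. 8C-V replicate 2 accounted for 6 of them. The mean log2(TPM + 1) of the 40 members was 2.75 in this library and at most 2.14 in the other 8C-V libraries. Isg15 was at 30.4 TPM (next highest 3.89), Ifit3 at 9.96 (0.843), Ifit1 at 5.45 (1.49), Cxcl10 at 3.12 (0.809) and Bst2 at 164 TPM (131). Without this library the number of members called went from 0 to 1 for EPZ6438 alone and stayed at 0 for 8C-V against 8C and for the interaction of VPA and EPZ6438.

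The other high values were Ifit3 at 4.3 TPM in 8C replicate 6 (next highest 1.15), Bst2 at 202 TPM in 8C-E replicate 6 (158), and Samd9l at 41.9 TPM (11.3) and Ifi35 at 57.1 TPM (44.0) in 8C-E replicate 7. Low values were Irf1 at 16.1 TPM (next lowest 26.0) and Lgals3bp at 340 TPM (414) in 8C-VE replicate 7 and Ifit2 at 0.878 TPM in ENR replicate 5 (1.81).

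The difference of Ifit2 with both drugs was smaller in the 8C medium than in ENR, with an interaction of -1.41 on the log2 scale (limma, adjusted p = 0.0257). The adjusted p was 0.0729 with a pseudocount of 0.1 and 0.0594 with the replicate block.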

How the results depend on the processing

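Among called members Irgm1 at 3 dpi turned from a fall to 0.18 after quantile normalization and 0.14 with the length trend removed, and no other called member changed sign under the alternatives run. Apart from fits that leave out a replicate, 343 values of single called members kept their side of the threshold and 74 lost the call in the same direction, and 161 counts of members called stayed within 1.5 times and 57 moved. For 8C against ENR (3 called) the count was 11 with a pseudocount of 0.1, 12 with no fold limit (beside 4440 of 12665 genes), 6 over numbers 1 to 3 and 14 over numbers 4 to 6. For 8C against 8C-VE (2) it was 1 with a minimum mean of 5 TPM, 1 after quantile normalization, 1 with the length trend removed, 4 with no fold limit (beside 2957 of 12622 genes) and 5 over numbers 4 to 6. For 8C-VE against ENR (0) it was 3 with no fold limit (beside 5.85% of all genes higher and 3.49% lower), 2 over numbers 1 to 3 (1.93 and 4.78%) and 4 over numbers 4 to 6 (2.83 and 1.77%). For VPA alone (2) it was 4 with no fold limit (beside 1300 of 12238 genes) and 4 over numbers 1 to 3. For EPZ6438 alone (0) it was 1 with no fold limit (beside 742 of 12263 genes), 1 with all 10 groups in the fit and 2 over numbers 1 to 3. For 8C-V against 8C (0) it was 2 with no fold limit (2.92 and 9.17%) and 3 over numbers 4 to 6 (2.58 and 6.49%), and for 8C-E against 8C (0) 2 (0.664 and 6.11%) and 4 (0.697 and 5.14%). For ENR+VE against ENR (2) it was 1 with a minimum mean of 5 TPM and 4 with ENR numbers 4 to 6.

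For 8C-GSK3i, 8C-Pex and 8C-bFGF (0 each) the count was 5, 5 and 8 with the replicate block, beside 3.47, 2.5 and 2.73% of all genes higher and 2.29, 1.61 and 1.79% lower, and 7, 7 and 9 against 8C numbers 1 to 3. Between 2 organoid media the block kept only the numbers that both held. For these media and 8C-EGF it therefore used 8C replicates 1 to 3 alone, and for ENR+VE it used ENR replicates 1 to 3 alone, so removed libraries and the block cannot be told apart. For 8C-EGF (0) it was 1 after quantile normalization, 1 with all 10 groups, 1 with the replicate block, 5 against 8C numbers 1 to 3 and 2 against numbers 4 to 6. For the medium by drugs interaction (1) it was 0 with a pseudocount of 0.1, with a minimum mean of 5 TPM and with the replicate block. In these organoid comparisons, as in ENR+VE against ENR, the replicate numbers did not deviate together in every pair and are read as names only. In 8C against ENR, 8C against 8C-VE and 8C-E against 8C, 6 of 7 same-numbered pairs correlated above 0.1. Their mean correlations were 0.254, 0.407 and 0.467. The main fits of these comparisons do not use this pairing. In the crypts the numbers have only 2 pairs a comparison (correlations from -0.197 to 0.308, over 0.1 in 4 of 8 comparisons) and no label ties them, so they too are read as names. The block moved no other count by over 1.5 times.

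For irradiation against Normal the count was 0 at 1 dpi (1) after quantile normalization, 11 at 2 dpi (6) after quantile normalization and 12 with the length trend removed, and 9 at 3 dpi (14) with a minimum mean of 5 TPM. For irradiation at 5 dpi (3) it was 5 with no fold limit (beside 2937 of 10802 genes) and 5 with mitochondrial genes removed. For the drugs at 2 dpi (6) it was 0 with no minimum mean, after quantile normalization, with the length trend removed and with mitochondrial genes removed. At 3 dpi (8) it was 5 with a minimum mean of 5 TPM, 3 after quantile normalization and 1 with the length trend removed. For the mean over days (1) it was 2 with a pseudocount of 0.1, 0 after quantile normalization, 10 with no fold limit (beside 5932 of 10802 genes) and 0 with the length trend removed. For the drugs by day (0) it was 4 with a pseudocount of 0.1, 2 with a minimum mean of 5 TPM and 1 with the replicate block. The cause of these moves was not tested.

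Leaving out 1 replicate gave 3 to 6 members for 8C against ENR, 1 to 5 for 8C against 8C-VE, 0 to 1 for 8C-VE against ENR, EPZ6438 alone, 8C-V against 8C and 8C-EGF, 1 to 4 at 1 dpi, 4 to 10 at 2 dpi, 12 to 16 at 3 dpi and 2 to 11 at 5 dpi. With the drugs it gave 0 to 3 at 1 dpi, 0 to 6 at 2 dpi, 6 to 12 at 3 dpi and 0 to 1 for the mean over days. In crypts this leaves a group with 1 library, which is assumed to vary like the other groups. The counts without 1 replicate stand without the share of all genes in the same fits and are no result about the members. With 2 crypt libraries a group and TPM values that keep no depth, small differences of low members may have been missed.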
